A study of Apera spica-venti with 32 samples.

Results

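The transcript feature TRINITY_DN2098_c0_g1_i46.p2 is a predicted reading frame on an assembled contig of Apera spica-venti, silky windgrass, and is described by the authors as eukaryotic translation initiation factor 6-2 (eIF6-2). It was 1 of 39590 features in the deposited count table and 1 of the 25036 that had enough counts to be tested. It was chosen by its counts, which were near 0 in the 16 untreated libraries and high in the 16 libraries from plants sprayed with the herbicide pinoxaden. The rise after spraying is therefore described here and carries no test. Tests were run on what the choice did not use, which were the differences among the sprayed groups and the behaviour of other features.

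Leaves came from 4 greenhouse-grown populations, S1 and S2, which are susceptible to herbicides, and R1 and R2, which are resistant to multiple herbicides. Each population was left untreated or received a single spray of pinoxaden, which blocks the fatty acid enzyme acetyl-CoA carboxylase, at a dose of 45 g per ha, and sprayed leaves were frozen 8 h after it. Each of the 8 groups had 4 biological replicates, and each replicate pooled 3 plants. The controls received no herbicide, and neither a mock spray nor a separate harvest time is recorded for them, so the herbicide, the other ingredients of the spray and the spraying itself cannot be told apart. Each class held only 2 populations, so the p-values describe these populations. Libraries held 26213780 to 46062806 counts in untreated groups and 28605611 to 38956981 in sprayed groups. The 44 features described as Rubisco, chlorophyll a/b binding or photosystem I and II proteins define green leaf. They took 59.1 to 68.2% of the counts of untreated libraries and 61.6 to 66.9% of those of sprayed libraries. Features typical of root, pollen, seed or meristem took at most 0.0193%, and those whose description named viruses, fungi, bacteria or insects, several of which are plant genes, at most 0.0101%.

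eIF6 is a protein conserved from yeast to humans and plants that binds the large (60S) ribosomal subunit. It is needed to build that subunit in the nucleolus, and while bound it keeps the large subunit from joining the small one. In yeast and human cells it is released in the cytoplasm by the protein SBDS together with a GTPase related to elongation factor 2, named EFL1, after which the subunit can enter translation. No sequence of the contig was used here, and the length of its reading frames is not known, so levels are compared between groups for 1 feature and not between features.

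In untreated leaves the p2 frame had 14 counts in all 16 libraries together, and 11 of the 16 libraries had none. Replicate 2 of untreated S1 had 2 counts, replicates 2 and 4 of untreated S2 had 1 and 5, replicate 1 of untreated R1 had 4, and replicate 3 of untreated R2 had 2. The highest untreated library reached 0.13 CPM, a count scaled for library size with TMM factors. At these depths the untreated level lay at the limit of what the counts resolve, and an order among the untreated groups was not detectable.

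Every sprayed library held counts of the p2 frame. The sprayed S1 libraries had 1211, 1160, 1784 and 477 counts, or 31.1, 30.2, 43.4 and 13.1 CPM in replicates 1 to 4. The sprayed R1 libraries had 20.7, 18.5, 17.3 and 22.0 CPM, from 681, 546, 469 and 835 counts. These were the populations with the highest levels, and R1 was also the most even, with a coefficient of variation of 10.7% against 42.3% in S1. The sprayed S2 libraries had 3.37, 13.3, 5.39 and 9.10 CPM, from 99, 469, 182 and 269 counts. The sprayed R2 libraries had 6.37, 1.89, 1.25 and 4.53 CPM, from 234, 68, 46 and 192 counts. The lowest sprayed library, in R2, was thus still above the highest untreated library, and it was 34.7-fold below the highest sprayed library, in S1.

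**Figure D1:**
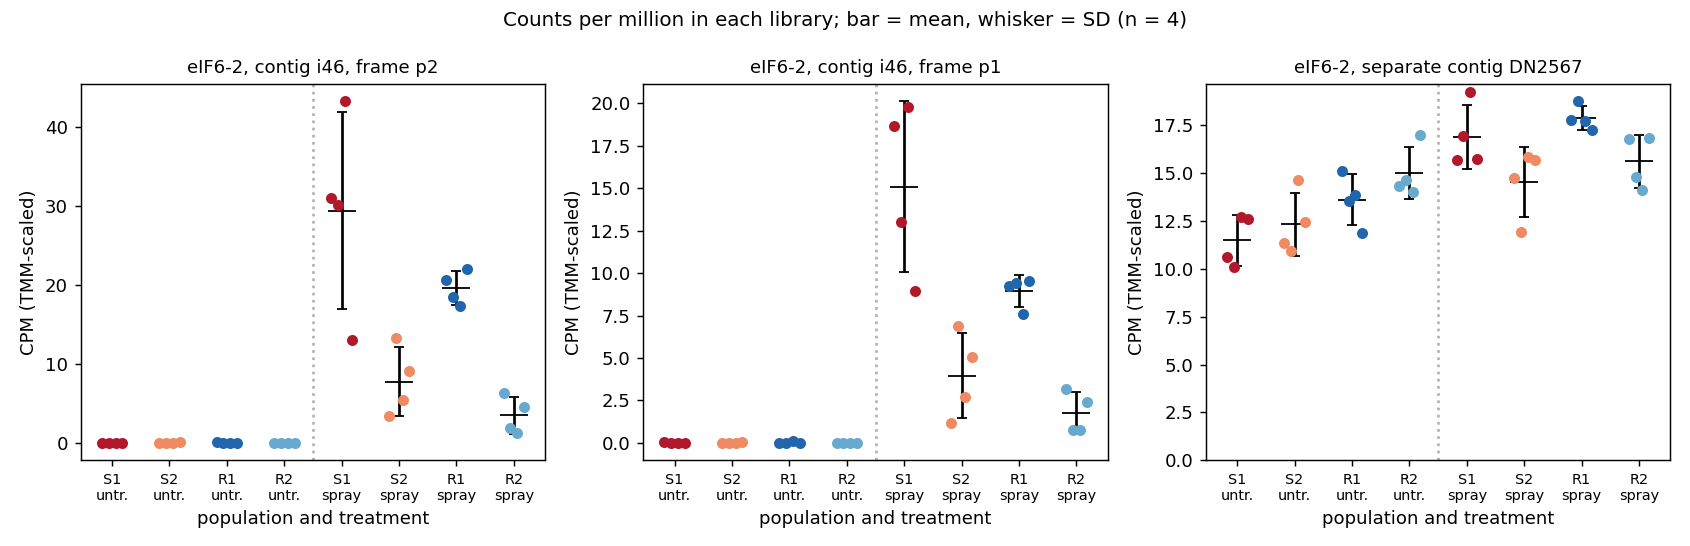
CPM of the 3 features described as eIF6-2 in each of the 32 libraries (points, by population and treatment), with the group mean (bar) and SD (whisker, n = 4); each panel has its own linear axis. Both frames of contig i46 lie at or near 0 in all untreated libraries and are highest in sprayed S1 (mean 29.4 CPM for p2 and 15.1 CPM for p1), while the feature on contig DN2567 lies between 10.1 and 19.2 CPM in every library.

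Summed over a population, the ratio of sprayed to untreated level was 2076 in S1 (95% interval for counting error 574 to 17140), 625 in R1 (244 to 2297), 254.5 in R2 (70.1 to 2107) and 175 in S2 (80.2 to 478). The intervals are wide because the untreated groups held 2 to 6 counts each. Over all libraries the ratio was 598 (356 to 1095), from 8722 counts against 14. The authors' deposited table lists a log2 fold change of 9.32 for sprayed against control susceptible plants and 9.07 for resistant plants, and it lists no value for the feature between the classes. Of all features tested, 0.587% had every sprayed library above every untreated one. A steeper pattern, with every untreated library under 0.2 CPM and every sprayed library over 1 CPM, was met by 3 of 25036 features, but these limits were set after the values were seen and the feature had been chosen for this pattern. The others were an E3 ubiquitin-protein ligase RDUF1-like feature, of a family that marks proteins for degradation, and a feature described only as an unnamed protein product.

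**Figure D2:**
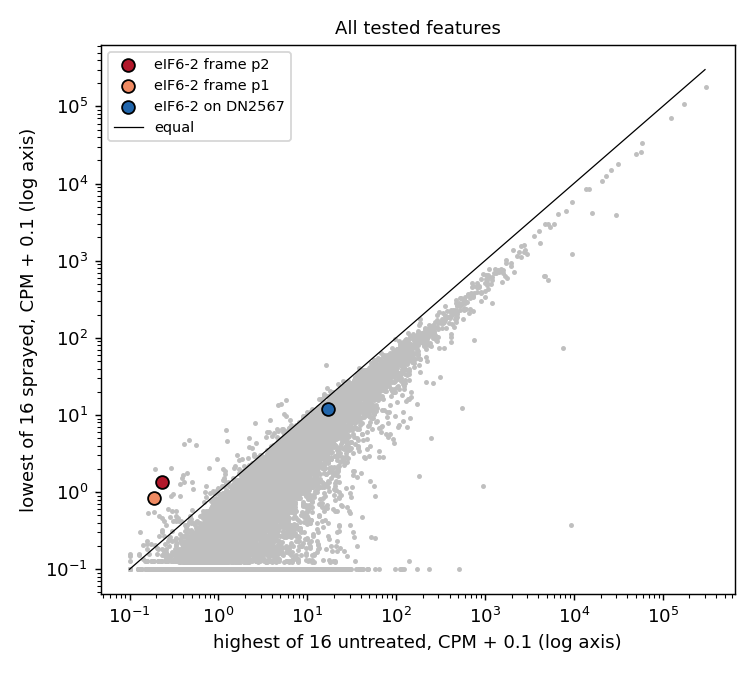
Each grey point is 1 of the 25036 tested features, with its highest CPM among 16 untreated libraries on the horizontal axis and its lowest CPM among 16 sprayed libraries on the vertical axis, both plus 0.1 and on log axes; points above the line had no overlap between treatments. The p2 frame lies above the line at a ratio of 5.85, the p1 frame at 4.39, and the eIF6-2 feature on contig DN2567 lies below it.

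Whether a single frame or the locus as a whole changed was read from the other rows of the same locus. The count table held 2 rows for it, the frames p1 and p2 of the same contig, i46, and both carry the description eIF6-2. No further row of the assembly cluster DN2098 was in the table. The p1 frame had 7 counts in the 16 untreated libraries, made up of 3 in S1, 3 in R1 and 1 in S2, and untreated R2 had none. After spraying it had 15.1 ± 5.06 CPM in S1 (SD, n = 4), 8.94 ± 0.925 CPM in R1, 3.95 ± 2.52 CPM in S2 and 1.78 ± 1.23 CPM in R2. Both frames were thus near 0 before spraying and present in all 16 sprayed libraries, with the populations in the same order.

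The sprayed to untreated ratio of p1 was 591 over all libraries (287 to 1471, from 4308 against 7 counts). It was 707 in S1 (242 to 3431), 378.5 in R1 (129 to 1838) and 534 in S2 (95.4 to 21130), and in R2 the level was at least 86.1-fold higher than a floor of 3 counts over the untreated group. In the test over all features, where 14.6% of features rose after spraying (quasi-likelihood test of edgeR with Benjamini-Hochberg adjustment), p1 was called with an adjusted p of 5.15e-13. That call is not independent of the choice of the locus, because p1 shares its contig and libraries with p2. The authors' deposited table lists p1 with log2 fold changes of 9.35 in susceptible and 8.83 in resistant plants.

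The p2 frame took 66.9% of the locus counts in the sprayed libraries (95% exact binomial interval for counting error 66.1 to 67.8%, of 13030 counts). In the untreated libraries it took 66.7% (43.0 to 85.4%), of 21 counts. Per sprayed library the share ran from 59.3% in replicate 4 of S1 to 74.4% in replicate 1 of S2. The mean share was 67.6 ± 2.85% in resistant and 66.4 ± 4.66% in susceptible plants (SD, n = 8 each). The difference of 1.21 percentage points was within the spread between libraries (exact two-sided permutation test, p = 0.542). Across the 16 sprayed libraries the frames had a Pearson correlation of 0.987 on log2 CPM and a Spearman correlation of 0.988. With the population means removed, Pearson's r was 0.95. These points share libraries and a contig, and the positions of the frames on it are not given, so whether reads were counted for both frames was not tested.

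**Figure D3:**
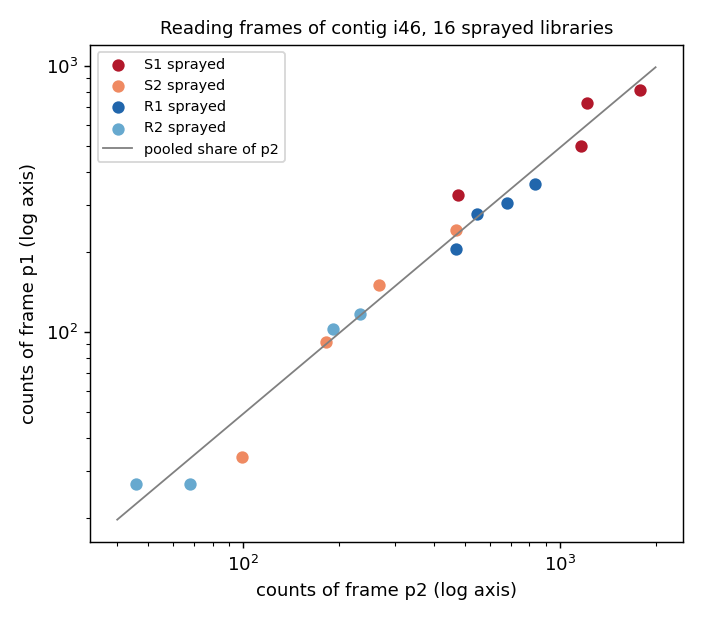
Counts of frame p1 (vertical, log axis) against counts of frame p2 (horizontal, log axis) in the 16 sprayed libraries, coloured by population; the line marks the share of p2 pooled over these libraries, 66.9%. The libraries follow the line from R2, with the fewest counts, to S1, with the most.

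Among sprayed leaves the p2 frame averaged 29.4 ± 12.5 CPM in S1 (SD, n = 4), 19.6 ± 2.11 CPM in R1, 7.79 ± 4.37 CPM in S2 and 3.51 ± 2.38 CPM in R2. The order thus interleaved the classes, and the largest differences were between populations of 1 class or between S1 and R2. In the resistant plants R2 lay 5.58-fold below R1 (log2 fold change -2.48 ± 0.45, SE, adjusted p = 0.0124 in edgeR), with no overlap of libraries, in a contrast where 0.32% of features were called lower. The exact permutation p was 0.0286, the smallest that 4 against 4 libraries allow. The edgeR call was lost without replicate 2 of sprayed R2 (-2.28, adjusted p = 0.0779), without its replicate 3 (-2.21, adjusted p = 0.0633) and when the 16 sprayed libraries were fitted alone (-2.49, adjusted p = 0.0721). In the susceptible plants S2 lay 3.77-fold below S1 (-1.92 ± 0.44, adjusted p = 0.0363 in edgeR), where 0.739% of features were called lower. Replicate 2 of S2 overlapped replicate 4 of S1, and the exact permutation p was 0.0571. That call was lost when any of replicates 1, 2 or 3 of sprayed S1 or replicates 1, 3 or 4 of sprayed S2 was left out, with adjusted p from 0.0697 to 0.146.

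The classes overlapped. Sprayed resistant libraries averaged 11.6 ± 8.86 CPM and sprayed susceptible libraries 18.6 ± 14.4 CPM (SD, n = 8 each), a log2 fold change of -0.87 ± 0.32 with a 95% interval from -1.52 to -0.21. Its adjusted p was 0.156 in edgeR, where 2.3% of features were called in either direction, and the exact permutation p was 0.261. That permutation treated the 8 libraries of a class as exchangeable, though they came from 2 populations with different levels. The other 4 pairs of populations were compared after the levels had been seen. R2 lay 8.37-fold below S1 (adjusted p = 0.00029 in edgeR, with 2.57% of features called lower), without overlap. R1 against S1 gave -0.58 ± 0.44 on the log2 scale (95% interval -1.49 to 0.32, adjusted p = 0.635, with 0.987% of features called in either direction). R1 against S2 gave 1.33 ± 0.45 (0.41 to 2.25, adjusted p = 0.236, with 0.407% called), without overlap, and R2 against S2 gave -1.15 ± 0.46 (-2.09 to -0.21, adjusted p = 0.354, with 0.192% called), with overlap. Neighbours in the order S1, R1, S2 and R2 therefore did not differ past the threshold. Over the 6 pairs, the exact permutation p-values adjusted by the Benjamini-Hochberg method were 0.0571 for R2 against R1, R2 against S1 and R1 against S2, 0.0857 for S2 against S1, and 0.143 for the rest. The pairs at 0.0571 each had the smallest unadjusted p that 4 against 4 libraries allow, 0.0286. With this number of fully separated pairs their adjusted p could not have been lower, whatever the size of the difference.

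The p1 frame gave the same order of means. Its log2 fold change was -1.93 ± 0.47 for S2 against S1 (adjusted p = 0.0479) and -2.33 ± 0.48 for R2 against R1 (adjusted p = 0.0335). The first call was lost in 26 and the second in 11 of 37 other settings, with adjusted p up to 0.157 and 0.145. For p1, S2 against S1, R2 against R1, R2 against S1 and R1 against S2 had no overlap of libraries. Their exact permutation p was 0.0286 each, or 0.0429 with Benjamini-Hochberg adjustment over the 6 pairs. R1 against S1 and R2 against S2 overlapped (adjusted permutation p = 0.137 and 0.2). These tests are not independent of those of p2, because the frames share a contig and libraries.

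Another feature described as eIF6-2, TRINITY_DN2567_c0_g1_i5.p1, lies on a separate contig and is the only row of its cluster. It was expressed before spraying, at 11.5 ± 1.33 CPM in S1 (SD, n = 4), 12.3 ± 1.66 CPM in S2, 13.6 ± 1.33 CPM in R1 and 15.0 ± 1.37 CPM in R2. After spraying it had 16.9 ± 1.66, 14.5 ± 1.82, 17.9 ± 0.631 and 15.6 ± 1.38 CPM in the same order of populations. Averaged over populations it rose by a log2 fold change of 0.31 ± 0.05 (adjusted p = 6.08e-05 in edgeR). By population it rose in S1 (0.55 ± 0.11, adjusted p = 0.000488, where 10.9% of features rose) and in R1 (0.39 ± 0.11, adjusted p = 0.0301, where 3.84% rose), the latter call being lost in 7 of 37 other settings, with adjusted p up to 0.146. In S2 the change was 0.24 ± 0.11 (adjusted p = 0.215) and in R2 0.06 ± 0.11 (adjusted p = 0.923). The change in S2 was called in 1 of 37 other settings (adjusted p = 0.0283). The authors' deposited table lists this feature only for susceptible plants, with a log2 fold change of 0.40. Over the 16 sprayed libraries its correlation with p2 was 0.51, and 0.24 with the population means removed. The contigs are given the same description, and which of them encodes a complete protein was not tested.

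Features linked by their description to the assembly, export and release of the large subunit, on which eIF6 acts, were read from a list of words. Every feature with a description had been listed by the authors as differentially expressed on these libraries, so the counts of such a list are not independent evidence of a direction. Of 22 features in the list, 20 rose after spraying and the other 2 did not pass the test, against 14.6% of all features that rose. The median log2 fold change was 0.93, beside -0.02 over all features tested. The number that rose was 21 in S1, beside 10.9% of all features there. It was 7 in R1, beside 3.84% of all features, 6 in S2, beside 4.6%, and 3 in R2, beside 1.28%. The list holds 3 components of the RNA exosome, which trims ribosomal RNA and also degrades other RNA. It also holds features described as rRNA biogenesis protein RRP5 and RRP12-like protein, and the words do not separate the ribosomal subunits. The counts are of reading frames. Frames of the same contig are counted separately for pescadillo and for nucleolar complex protein 3.

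EFL1, the GTPase that in yeast and human cells releases eIF6, rose by a log2 fold change of 2.98 ± 0.16 (adjusted p = 3.42e-13 in edgeR), or 7.87-fold. Its mean level went from 4.77 ± 0.642 to 87.2 ± 28.4 CPM in S1 (SD, n = 4), from 4.50 ± 1.15 to 52.6 ± 7.15 CPM in R1, from 3.49 ± 1.09 to 23.6 ± 12.2 CPM in S2 and from 4.81 ± 0.613 to 12.8 ± 5.91 CPM in R2. Untreated means thus lay between 3.49 and 4.81 CPM, and the sprayed means ran in the order seen for p2. S2 lay below S1 by -1.88 ± 0.31 on the log2 scale (adjusted p = 0.00297) and R2 below R1 by -2.04 ± 0.31 (adjusted p = 0.00292), and both calls held in all 37 other settings. SBDS, the partner of EFL1 in that release, rose by 1.65 ± 0.10 (adjusted p = 9.73e-13). It was 1.86 ± 0.294 CPM in untreated and 8.81 ± 0.479 CPM in sprayed S1, and 1.96 ± 0.261 and 3.56 ± 0.850 CPM in R2. Between sprayed populations R2 lay below R1 by -0.97 ± 0.20 (adjusted p = 0.0227, lost in 4 of 37 other settings, up to 0.119), and S2 below S1 by -0.79 ± 0.20 (adjusted p = 0.046, lost in 23 of 37, up to 0.192). NMD3, the adaptor that carries the large subunit out of the nucleus, rose by 0.94 ± 0.07 (adjusted p = 8.48e-12). In R2 alone its change of 0.25 ± 0.13 did not pass (adjusted p = 0.487). Its S2 and R2 levels lay below those of S1 (-0.75 ± 0.13, adjusted p = 0.00309) and R1 (-0.89 ± 0.13, adjusted p = 0.000998) after spraying.

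3 further members were named for their role, with their values already seen. LSG1-2, of the GTPase family that in yeast releases NMD3 from the subunit, rose by 0.86 ± 0.12 (adjusted p = 4.15e-06). RLP24, which in yeast holds the place later taken by ribosomal protein L24, rose by 0.63 ± 0.10 (adjusted p = 9.23e-06). The homologue of MRT4, a yeast assembly factor of the ribosomal stalk, changed by 0.57 ± 0.22 and did not pass the test (adjusted p = 0.0518).

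**Figure D4:**
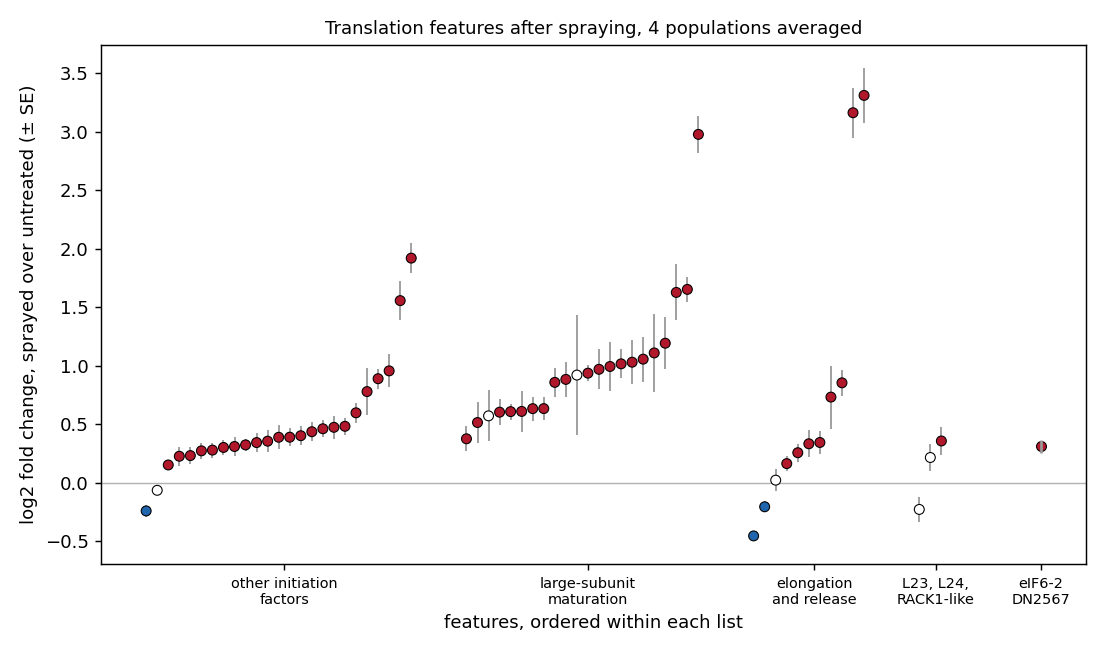
Log2 fold change after spraying, averaged over 4 populations, with its SE, for each described feature of 4 lists and for the eIF6-2 feature on contig DN2567; red points rose, blue points fell and open points did not pass the test. In the maturation list 20 of 22 rose, led by EFL1 at 2.98, and in the initiation list 23 of 25 rose with a median of 0.39; frames p1 and p2 lie far above the axis range and are left out.

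Other translation initiation factors were the next list. Of 25 features 23 rose after spraying, 1 fell and 1 did not pass the test, beside 14.6% and 13% of all features that rose and fell. The median log2 fold change was 0.39, beside -0.02 over all features. By population 21 rose in S1, beside 10.9% of all features, 8 in R1, beside 3.84%, and 6 in S2, beside 4.6%. In R2 1 of 25 rose, beside 1.28% of all features, which is close to that background. A feature described as translation initiation factor IF-2 rose by 1.92 ± 0.13 (adjusted p = 4.91e-12 in edgeR), and it rose in all 4 populations, from 1.70 ± 0.26 in S2 to 2.11 ± 0.26 in R2. The feature described as eIF5B-like, a GTPase family that joins the ribosomal subunits, rose by 1.56 ± 0.16 (adjusted p = 2.59e-08). In R2 alone its change of 0.86 ± 0.34 did not pass (adjusted p = 0.271). The beta subunit of eIF2, the factor that brings the initiator tRNA, rose by 0.89 ± 0.09 (adjusted p = 4.35e-09). In R2 alone its change of 0.24 ± 0.17 did not pass (adjusted p = 0.676). After spraying its S2 level lay below that of S1 (-0.96 ± 0.17, adjusted p = 0.00364). R2 lay below R1 (-0.78 ± 0.17, adjusted p = 0.0313, lost in 8 of 37 other settings, up to 0.136). The chloroplastic IF-2 was the member that fell, by 0.24 on the log2 scale (SE 0.05, adjusted p = 0.00123), and this call was lost with library totals as the only scaling (-0.07, adjusted p = 0.405). Most eIF3 and eIF2B subunits rose by less than 1.4-fold. Frames of the same contig are counted separately in this list for eIF3 subunit B.

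Of the proteins at the face of the large subunit that eIF6 covers, and of RACK1, a ribosomal scaffold protein that in mammals recruits a kinase of eIF6, 3 features were tested. Averaged over populations, the 60S ribosomal protein L24 rose by 0.36 ± 0.12 (adjusted p = 0.0266 in edgeR). That call was lost without either of 2 single libraries (adjusted p up to 0.052). By population L24 was called only in S1 (1.05 ± 0.24, adjusted p = 0.00222). It changed by 0.31 in S2, 0.08 in R1 and -0.0087 in R2 (adjusted p = 0.543, 0.911 and 0.998). L23 changed by -0.23 ± 0.10 (adjusted p = 0.111) and the RACK1-like feature by 0.22 ± 0.11 (adjusted p = 0.168), and neither passed.

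The level of p2 was set beside that of each list over the 16 sprayed libraries, as Pearson's r of log2 CPM. The libraries share populations, so these values are descriptions. The median r was 0.78 for the maturation list, 0.72 for initiation factors and 0.76 for 11 elongation and release factors, of which 8 rose after spraying and 2, both chloroplastic, fell, beside 14.6% and 13% of all features. It was -0.22 for the 44 leaf features and -0.03 over all 25034 tested features off the locus. Among the 3660 features off the locus that rose after spraying the median was 0.40. An r of at least 0.9 was reached by 2 of 22, 2 of 25 and 3 of 11 members of those lists, by 3.33% of the features that rose after spraying and by 0.495% of all features. The elongation and release list counts frames of the same contig separately for elongation factor 1-gamma. Its members, too, had been listed by the authors as differentially expressed. Of the leaf features 36 of 44 fell after spraying, beside 13% of all features, and the number that fell was 37 in S1, 6 in R2, 4 in S2 and 1 in R1, beside 9.04%, 0.359%, 2.6% and 1.85% of all features in those populations. Their median log2 fold change was -0.34. Their summed share of the counts did not fall, with a median of 64.6% in untreated and 65.1% in sprayed libraries. The authors had listed these features as differentially expressed, and the falls were not tested under other scalings. In leaf homogenates fewer cells of a type and less RNA per cell cannot be told apart, and the part of leaf composition in the p2 level was not tested.

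The features most like p2 were named by rank. Over all 32 libraries the 5 highest correlations off the locus ran from 0.982 to 0.986. They were a feature described as NF-X1-type zinc finger protein NFXL1, a 60S acidic ribosomal protein P2A-like feature, which belongs to the ribosomal stalk, and 3 with no informative description. These values include the step between untreated and sprayed libraries for which p2 was chosen. Over the 16 sprayed libraries alone the r of these 5 features with p2 ran from 0.938 to 0.979. The P2A-like feature had 10 counts in the untreated libraries and 9648 in the sprayed ones, at 34.1, 21.6, 8.42 and 2.63 CPM on average in sprayed S1, R1, S2 and R2. That is the order of p2. NFXL1, whose Arabidopsis homologue acts in stress and defence responses, was present before spraying, at 4.70 CPM on average, and had 110 CPM in sprayed S1 and 27.2 CPM in sprayed R2.

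Within the sprayed populations, with their means removed, the highest correlations off the locus were 0.94 to 0.97. Named among these 5 were an elongation factor 2 feature on contig DN1168_c0_g1, at 0.95, and Cyclin-T1-1, a cyclin of the transcription elongation machinery, also at 0.95. Elongation factor 2 moves the ribosome along the message and is the relative of EFL1. Its sprayed levels were 92.6 ± 38.5 CPM in S1 (SD, n = 4), 75.5 ± 7.73 CPM in R1, 30.3 ± 18.2 CPM in S2 and 12.2 ± 8.17 CPM in R2. It rose by 3.31 ± 0.23 on the log2 scale (adjusted p = 9.94e-11 in edgeR). R2 lay below R1 after spraying (-2.62 ± 0.45, adjusted p = 0.00964, lost in 2 of 37 other settings, up to 0.0638). S2 against S1 gave -1.61 ± 0.45 (adjusted p = 0.0789, called in 2 of 37 other settings, down to 0.0144).

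**Figure D5:**
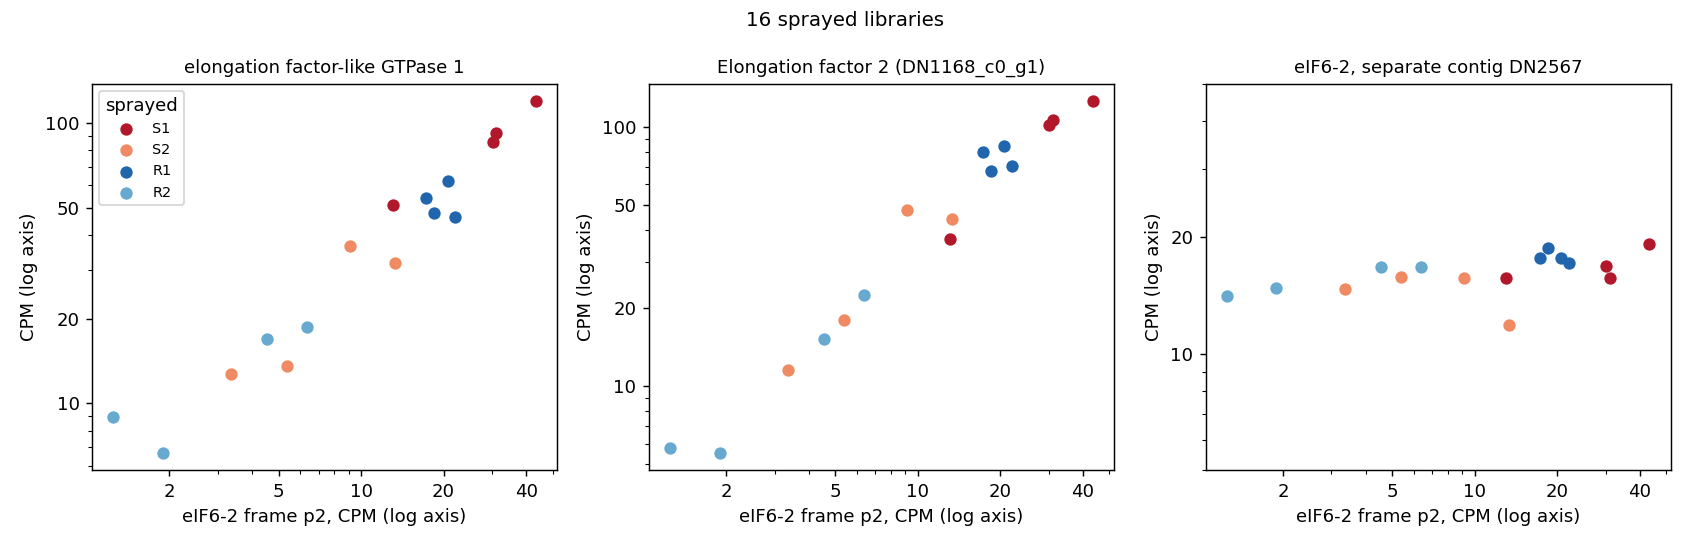
CPM of EFL1, of the elongation factor 2 feature on contig DN1168_c0_g1 and of the eIF6-2 feature on contig DN2567 (vertical, log axes) against CPM of frame p2 (horizontal, log axis) in the 16 sprayed libraries, coloured by population. The first 2 are lowest in R2 and highest in S1, as p2 is, though within R1 the library with the most p2 has the least EFL1 (46.2 CPM), while the feature on DN2567 spans 11.9 to 19.2 CPM over the whole range of p2.

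Ranked by the ratio of the lowest sprayed to the highest untreated library, p2 stood 6th of the tested features. The features around it divide by their pattern among sprayed populations. RDUF1-like, with the highest ratio, 10.4, had 4.60, 3.75, 4.83 and 5.51 CPM on average in sprayed S1, R1, S2 and R2, and an r with p2 of -0.03. An ankyrin repeat and SOCS box feature, at 10.01, 9.74, 14.8 and 12.6 CPM, had an r of 0.00245. Their summed counts in sprayed and untreated libraries were 2660 and 17 for the first and 6560 and 82 for the second, against 8722 and 14 for p2. They stood above p2 in the ratio of the extreme libraries and below it in the ratio of summed counts. A UDP-glycosyltransferase 74F2-like feature, of an enzyme family that attaches sugars to small molecules, had 52.3, 28.5, 10.4 and 5.57 CPM and an r of 0.94, the order of p2. A mitochondrial 24.1 kDa heat shock protein feature, a small chaperone, had 5.99, 3.55, 5.29 and 5.21 CPM and an r of 0.27. A level near 0 before spraying therefore occurred both with and without the graded level among populations that p2 had.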

How the data were processed

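RNA of leaves was sequenced from ribosome-depleted, strand-specific libraries, per the labels' protocols. The submitters' processing notes name R 3.6.1, STAR 2.5.2b, FastQC 0.11.5 and DESeq2 1.24.0; the assembly, alignment and counting settings are not given in the sources used here. The authors deposited raw counts per reading frame of assembled contigs, with no normalization, in 32 columns that each matched a labelled library. A second table deposited by the authors holds log2 fold changes and adjusted p-values for 4 comparisons, listed only below 0.05, and the descriptions, which exist for 7967 features (7697 of them tested).

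Counts were filtered with filterByExpr by the 8 groups and scaled with TMM in edgeR 4.0.16 (R 4.3.3). A quasi-likelihood model with 8 group means was fitted to all 32 libraries (24 residual degrees of freedom), with Benjamini-Hochberg adjustment of the p-values over 25036 features. A feature is said to be called, to rise or to fall when its adjusted p is under 0.05. Populations were weighted equally. Single values were also compared by two-sided exact permutation tests. Ratios and shares carry 95% intervals for counting error only. Correlations used log2 CPM with a prior count of 2. The fit was tested on simulated data. DESeq2 1.42.0, other scalings, no filter, a replicate block and leaving out each library were tried as alternatives.

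The feature, the 8 description lists and the tests were chosen with earlier results of these data known. Named were the locus rows, every eIF6 feature, the 3 called features with the smallest p per direction in the initiation, maturation and subunit-face lists, and the features most like p2 by correlation (5 over all libraries, 5 over sprayed libraries with population means removed) or by the ratio of the lowest sprayed to the highest untreated CPM, each plus 0.1 (10); others are said to be chosen after their values were seen. Replicate pairs differed beyond sampling noise (chi-square per degree of freedom 11.8 to 102 over 48 pairs). Replicate numbers did not pair libraries across groups, since 1 of 112 correlations between same-numbered libraries was over 0.1.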

Additional observations from a re-analysis of the deposited data

Results flagged for a closer look

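In 7 of 27 sets of 4 libraries, for the 3 eIF6-2 features and the shares of p2 among the locus counts, 1 library stood far from the other 3. The rule is set for about 1 in 20 sets of normally distributed values, which counts near 0 are not. In 6 of the 7 sets the distant library was an untreated one with 1 to 4 counts while the others had none. Any count beside libraries without counts meets the rule, so these 6 sets cannot show an excess of distant libraries. For p2 these were replicate 2 of S1 (0.0640 CPM), replicate 1 of R1 (0.116 CPM) and replicate 3 of R2 (0.0464 CPM). For p1 they were replicate 1 of S1 (0.0794 CPM), replicate 4 of S2 (0.0261 CPM) and replicate 3 of R1 (0.0895 CPM). The libraries with p1 counts in S1 and R1 were not the ones with p2 counts. The other set was sprayed R1, where replicate 3 had 7.56 CPM of p1 and the other 3 libraries had up to 9.51 CPM.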

How the results depend on the processing

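No direction reversed under any of the alternatives tried. For S2 against S1 in sprayed leaves, the p2 log2 fold change of -1.92 lost its call with no filter on low counts (-1.92, adjusted p = 0.0592 in edgeR), with a replicate block (-1.97, adjusted p = 0.0574) and with the 16 sprayed libraries alone (-1.92, adjusted p = 0.0679), and ranged from -2.31 to -1.67 with 1 library left out. For R2 against R1 the call was lost with the 16 sprayed libraries alone (-2.49, adjusted p = 0.0721), and the value ranged from -2.94 to -2.21 with 1 library left out. The fit with the 16 sprayed libraries alone has fewer samples; otherwise the cause was not tested. Resistant against susceptible stayed above the threshold in all 39 settings (-1.09 to -0.67, adjusted p 0.0648 to 0.342). Replicate numbers did not pair the libraries, and 5 of 32 libraries correlated best with their own number. The initiation list lost its 1 fallen member, giving 0, with library totals as the only scaling. The number that rose was 22 to 23 in that list and 19 to 21 in the maturation list. Settings for pairs of populations other than S2 against S1 and R2 against R1, and for single features of the lists, were added after the data had been seen. Depth limits the untreated level of p2, which rests on 14 counts.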

Other observations

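The following translation features were chosen after their values were seen. Elongation factor 2 on contig DN1168_c0_g1 rose 9.92-fold on average over the populations (adjusted p = 9.94e-11 in edgeR), and elongation factor 2 on DN1168_c0_g2 rose 1.20-fold (adjusted p = 0.0123), and 1.72-fold in S1 (adjusted p = 0.000523). In untreated S1 the first had 2.87 ± 1.08 CPM (SD, n = 4) and in untreated R2 3.29 ± 1.20 CPM; its sprayed levels are given above. The second had 218 ± 30.6 CPM in untreated and 373 ± 44.4 CPM in sprayed S1, against 265 ± 49.3 and 247 ± 7.78 CPM in R2. Averaged over the populations, the eIF5B-like feature rose 2.94-fold (adjusted p = 2.59e-08) and the feature described as eIF5B 1.25-fold (adjusted p = 2.93e-05). In R2 alone neither was called (adjusted p = 0.271 and 0.798). Subunit 1-2-like of the peptide chain release factor, which frees the finished protein, rose 8.95-fold (adjusted p = 2.19e-11). It had 27.8 ± 9.44 CPM in sprayed S1, 25.2 ± 4.97 CPM in R1, 11.5 ± 6.38 CPM in S2 and 5.44 ± 2.75 CPM in R2. R2 lay below R1 (log2 fold change -2.21 ± 0.40, adjusted p = 0.0115, lost in 2 of 37 other settings, up to 0.0732).

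By group means, 31 of 25036 features lay under 0.2 CPM in every untreated group and over 1 CPM in every sprayed group, with limits set after the values were seen; both eIF6-2 frames of the DN2098 locus are among them. Others, picked by hand after their values were seen and given with their summed counts in sprayed and untreated libraries, were a mitochondrial threonine--tRNA ligase 1 (10137 and 37), 4 UDP-glycosyltransferase features (6988 and 41, 5801 and 30, 2310 and 51, and 1713 and 24), a heat stress transcription factor A-3 (2032 and 41), a glutathione S-transferase parC (1759 and 54) and a DETOXIFICATION 16-like transporter (1736 and 8).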
